A study of Mus musculus with 13 samples.

Results

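The TAM receptors Axl, Mertk and Tyro3 and their ligands Gas6 and Pros1 were followed in brain-resident myeloid cells sorted from PS2APP mice with and without Trem2. The 5 genes were matched by Ensembl identifier in files that list 52636 genes for each of 13 mice, and all 5 were among the 17086 genes that could be tested. The groups were 7 PS2APP;Trem2wt mice (labelled PS2APP, 5 females and 2 males) and 6 PS2APP;Trem2ko mice (labelled PS2APP;Trem2KO, 5 females and 1 male), aged 14 to 15 months. Every mouse carried the PS2APP transgenes, which encode mutant human presenilin 2 and APP and lead to β-amyloid plaques, so no mouse without plaques was included. The null allele of Trem2 was present in all cells of the PS2APP;Trem2ko mice and had been crossed in from C57BL/6N into a C57BL/6J line. Live CD11b+ CD45+ Ly6g- Ccr2- cells of cortex and hippocampus were collected by FACS, a gate that takes microglia together with a small population of perivascular macrophages. Each mouse gave 1 library and is 1 replicate.

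TAM receptors are receptor tyrosine kinases that sense dying cells. Gas6 and protein S, the product of Pros1, bind phosphatidylserine on the dead cell through a vitamin K-dependent domain and bridge it to the receptor, which starts engulfment and dampens inflammatory signaling. Gas6 binds all TAM receptors, whereas protein S acts mainly on Mertk and Tyro3. In brain, Mertk is a constitutive receptor of microglia, Axl is known to be induced in microglia around plaques, and Tyro3 is best known from neurons and oligodendrocytes.

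Axl lies on chromosome 7 of GRCm38 (25757273 to 25788705, minus strand), Mertk on chromosome 2 (128698956 to 128802894, plus strand) and Tyro3 on chromosome 2 (119797733 to 119818104, plus strand). Gas6 lies on chromosome 8 (13465374 to 13494490, minus strand) and Pros1 on chromosome 16 (62854307 to 62929346, plus strand). None of the 50-base words of the transcripts of these genes occurred in a transcript of another gene. In Gas6, 34 exonic bases (1.33% of its exon length) overlap Tmem255b on the opposite strand, and whether counting used the strand is not given in the sources used here.

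The promoters of Axl and Mertk are shown because these receptors differed in how their transcripts stood between the genotypes. Both sequences are from RefSeq (GRCm38.p6), run 5′ to 3′ on the strand of the gene from 250 bases before to 50 bases after the start, and have each match to the GC box GGGCGG, on either strand, in capitals.
Axl, chr7:25788684-25788983, minus strand: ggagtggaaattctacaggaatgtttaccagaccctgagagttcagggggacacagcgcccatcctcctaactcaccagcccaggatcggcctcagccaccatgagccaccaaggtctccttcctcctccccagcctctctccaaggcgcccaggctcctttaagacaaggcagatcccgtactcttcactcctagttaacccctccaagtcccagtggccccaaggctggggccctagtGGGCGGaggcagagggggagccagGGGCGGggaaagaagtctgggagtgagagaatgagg
Mertk, chr2:128698665-128698964, plus strand: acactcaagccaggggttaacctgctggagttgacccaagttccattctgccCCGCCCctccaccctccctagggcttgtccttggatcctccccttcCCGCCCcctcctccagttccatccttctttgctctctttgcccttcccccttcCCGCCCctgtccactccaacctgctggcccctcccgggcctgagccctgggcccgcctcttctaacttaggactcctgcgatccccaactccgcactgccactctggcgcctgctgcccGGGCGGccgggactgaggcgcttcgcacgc
The GC box, the letters bound by Sp1 and Sp3, was matched 2 times in Axl, 4 times in Mertk and Gas6, 6 times in Tyro3 and 5 times in Pros1, with overlapping matches counted separately, and 35.7% of 32851 promoters of this length hold it. Axl had 6 CpG and Mertk 14, against 31 in Tyro3, 17 in Gas6 and 21 in Pros1 and a median of 7 over all promoters. The AP-1 letters TGANTCA (7.81% of promoters), the LXR direct repeat with a spacer of 4 (0.0152%), the Maf recognition letters (0.387%) and the hypoxia letters ACGTG (19.6%) were in none of these 5 windows. The STAT letters TTCNNNGAA (8.30%) occurred once in Pros1, and the hypoxia letters GCGTG (32.4%) once in Mertk and once in Tyro3. These matches are a description of letters and not of binding.

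Total counts on genes ranged from 26120961 to 120569609 per mouse. The deleted gene Trem2 measured 1044 ± 141 nRPKM (SD, n = 7) where it was intact and 0.887 ± 0.734 nRPKM (SD, n = 6) in the knockout. The unit nRPKM is the authors' RPKM adjusted by a size factor, a level per transcript length. The summed level of 10 microglial markers was 14048 to 17027 nRPKM (median 16773) in PS2APP;Trem2wt and 14418 to 16300 (median 14926) in PS2APP;Trem2ko mice, and 5 of the 7 PS2APP;Trem2wt mice lay above every PS2APP;Trem2ko mouse. Of these markers 1 was called, the fractalkine receptor gene Cx3cr1, which was lower without Trem2 (log2 fold change -0.49, edgeR adjusted p = 0.0067). Of the markers of other cells 1 was called, the endothelial gene Flt1, with a log2 fold change of -2.20 (edgeR adjusted p = 0.000336) at 1.76 and 0.386 nRPKM. The remaining endothelial markers had log2 fold changes between -0.16 and 0.11. Summed endothelial markers had a median of 9.61 nRPKM in PS2APP;Trem2wt and 9.97 nRPKM in PS2APP;Trem2ko mice, so the Flt1 difference was not shared by its list. No other marker list (perivascular macrophages, monocytes, neutrophils, neurons, astrocytes, oligodendrocytes, endothelial cells, pericytes) summed to more than 246 nRPKM in any mouse, a value reached by the neutrophil markers of PS2APP;Trem2wt replicate 2, and no marker of these lists was at 0 in all mice.

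Axl was lower in PS2APP;Trem2ko cells, and no difference was detected for Mertk, Tyro3, Gas6 or Pros1. Counts were compared by the quasi-likelihood test of edgeR, with p-values adjusted by the Benjamini-Hochberg method over all 17086 genes. With the threshold at an adjusted p of 0.05, 1 of the 5 genes was called, beside 2.04% of all genes tested. Axl was also past the 2-fold mark that the study applied, as were 0.691% of all genes tested (called lower and at least 2-fold), but without PS2APP;Trem2wt replicate 3 its log2 fold change was -0.94, short of that mark. No gene of the 5 was called higher, and Axl alone had an unadjusted p of 0.05 or less, as 14.8% of all genes tested did. With voom+limma and with DESeq2 the call was likewise Axl alone. Over all 17086 genes, voom+limma called 325 lower and 111 higher, and DESeq2 called 526 lower and 325 higher. In none of the 5 genes were the levels of the genotypes without overlap, as they were in 1.62% of all genes tested.

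**Figure D1:**
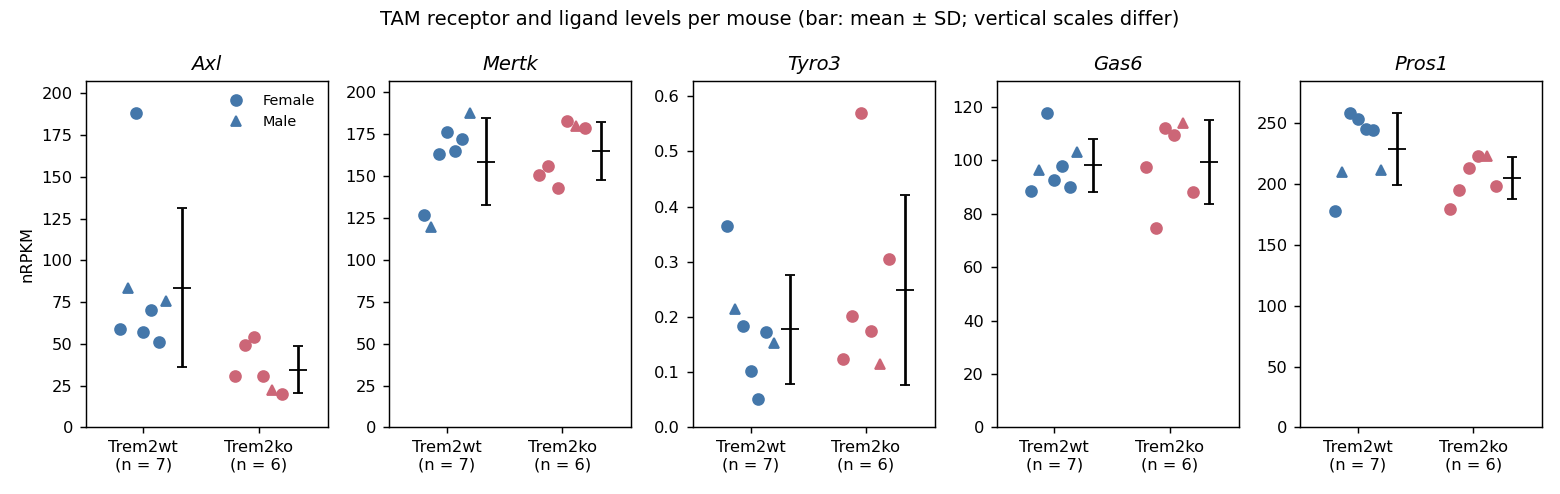
Level of each TAM receptor and ligand in nRPKM (vertical axis, starting at 0, with a separate scale for each gene) in single PS2APP;Trem2wt (blue) and PS2APP;Trem2ko (red) mice, females as circles and males as triangles, with the mean ± SD as a black bar. The Axl levels of 5 of 6 PS2APP;Trem2ko mice lie below all PS2APP;Trem2wt mice, and the groups also overlap for the other genes. For Pros1, 4 of 7 PS2APP;Trem2wt mice lie above all PS2APP;Trem2ko mice.

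Axl (ENSMUSG00000002602), the receptor for which Gas6 is the ligand, had a lowest level of 51.3, a median of 70.6 and a highest level of 188.6 nRPKM among the 7 PS2APP;Trem2wt mice. Among the 6 PS2APP;Trem2ko mice the lowest level was 20.1, the median 30.9 and the highest 54.1 nRPKM. The groups overlapped only through the highest PS2APP;Trem2ko mouse, replicate 3, which was above the lowest PS2APP;Trem2wt mouse, replicate 6. Means were 83.7 ± 47.6 (SD, n = 7) and 34.6 ± 14.1 nRPKM (SD, n = 6), from 9386 to 83351 counts per PS2APP;Trem2wt and 5491 to 23621 per PS2APP;Trem2ko mouse. The log2 fold change was -1.28 (standard error 0.31, edgeR adjusted p = 0.0473), a level 2.42-fold lower with a 95% interval from 1.53 to 3.84. In bulk samples, fewer cells that express Axl and less Axl RNA per cell cannot be told apart. Beside this decrease, the 8 perivascular macrophage markers summed to 11.5 to 33.8 nRPKM (median 30.4) in PS2APP;Trem2wt and 19.2 to 51.0 nRPKM (median 27.1) in PS2APP;Trem2ko mice. Of these markers 6 had a positive and 2 a negative log2 fold change, with a median of 0.31 and no call. The highest sum was that of PS2APP;Trem2ko replicate 3, the mouse whose Axl level overlapped with the other group. The next sum, 38.3 nRPKM in PS2APP;Trem2ko replicate 1, went with an Axl level of 30.9 nRPKM. The lowest sum, 11.5 nRPKM in PS2APP;Trem2wt replicate 4, went with an Axl level of 57.3 nRPKM. The 5 neutrophil markers summed to 13.1 to 246 nRPKM (median 46.9) and 0.143 to 40.3 nRPKM (median 31.1), although the gate left out Ly6g+ cells. All 4 neutrophil markers that could be tested had log2 fold changes between -1.61 and -1.40. None was called, and 2 of them, S100a9 and Camp, had an unadjusted p of 0.05 or less (0.0411 and 0.0481 from edgeR), and are named with their values known. Without PS2APP;Trem2wt replicate 2, which had the highest neutrophil sum, the log2 fold change of Axl was -1.28. Axl was not called in that fit (edgeR adjusted p = 0.0753). The part of such cells in the Axl result was not tested.

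The call for Axl was close to the threshold: Axl ranked 344 by p among the 348 genes called. Of the 261 genes other than Trem2 that were called lower, 162 had a smaller decrease than Axl and 258 a smaller p. The highest Axl level, 188.6 nRPKM in PS2APP;Trem2wt replicate 3, stood apart from the next, 83.2. Without this mouse the mean was 66.2 ± 12.3 nRPKM (SD, n = 6), and the log2 fold change was -0.94 (edgeR adjusted p = 0.0541). Over 13 edgeR fits that each omitted 1 mouse, Axl was called in 4. It was 0.0753, 0.0526, 0.0688 and 0.0605 without PS2APP;Trem2wt replicates 2, 4, 5 and 7, and 0.106, 0.0931, 0.0926 and 0.0990 without PS2APP;Trem2ko replicates 1, 4, 5 and 6. In females alone the adjusted p was 0.150, with a log2 fold change of -1.20. The log2 fold change stayed negative, between -1.44 and -0.94, in all 22 alternatives.

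**Figure D2:**
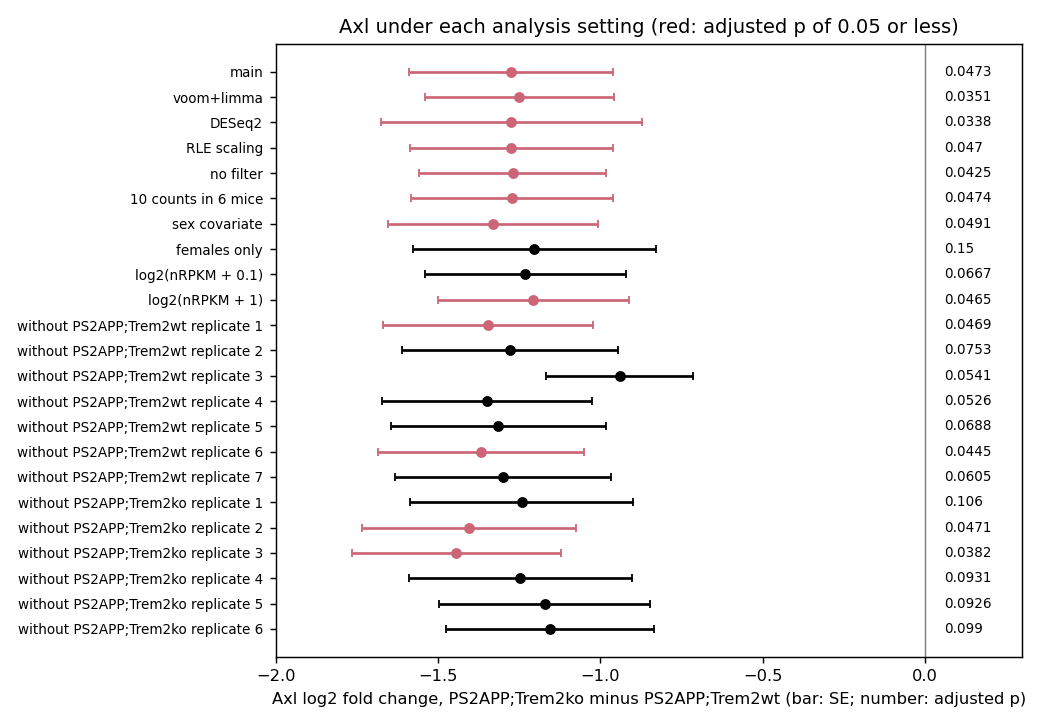
Log2 fold change of Axl (PS2APP;Trem2ko minus PS2APP;Trem2wt, horizontal axis, bars show the SE) in the reported fit, labelled main, and under 22 alternatives (vertical axis), with the adjusted p at the right and red marking settings in which Axl was called. All values lie between -1.44 and -0.94, and the adjusted p ranges from 0.0338 with DESeq2 to 0.150 in females only.

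Mertk (ENSMUSG00000014361), the receptor most tied to engulfment of dead cells by microglia, was the most abundant TAM receptor in 12 of the 13 mice. Its levels had a lowest value of 119.7, a median of 164.8 and a highest value of 187.8 nRPKM in PS2APP;Trem2wt mice, and of 142.9, 167.2 and 182.8 nRPKM in PS2APP;Trem2ko mice. Every PS2APP;Trem2ko mouse lay within the range of the PS2APP;Trem2wt mice. Means were 159 ± 26 (SD, n = 7) and 165 ± 17 nRPKM (SD, n = 6), with a log2 fold change of 0.05 (standard error 0.11, edgeR adjusted p = 0.870). The 95% interval of the log2 fold change ran from -0.18 to 0.29, or from 0.885-fold to 1.22-fold.

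Tyro3 (ENSMUSG00000027298) was near the lower end of detection, with 14 to 119 counts per PS2APP;Trem2wt and 60 to 165 per PS2APP;Trem2ko mouse, all above the limit of 3 counts set for detection. Its level was 0.0516 to 0.366 nRPKM (median 0.173) in PS2APP;Trem2wt and 0.116 to 0.571 nRPKM (median 0.189) in PS2APP;Trem2ko mice. The groups overlapped apart from the highest PS2APP;Trem2ko mouse and the 2 lowest PS2APP;Trem2wt mice. Means were 0.178 ± 0.099 (SD, n = 7) and 0.249 ± 0.172 nRPKM (SD, n = 6), and the log2 fold change of 0.47 (standard error 0.43, edgeR adjusted p = 0.668) had a 95% interval from -0.45 to 1.39. Its size rested on single mice, with a log2 fold change of 0.042 without PS2APP;Trem2ko replicate 3 and 0.74 without PS2APP;Trem2wt replicate 1. From nRPKM the value was 0.28 with a pseudocount of 0.1 and 0.078 with a pseudocount of 1, and voom+limma gave 0.21. Markers of cells known for Tyro3 were present at low levels. The 6 neuronal markers summed to 3.47 to 11.0 nRPKM in PS2APP;Trem2wt and 3.73 to 11.0 in PS2APP;Trem2ko mice, and the 5 oligodendrocyte markers to 24.5 to 38.7 and 22.4 to 33.5. PS2APP;Trem2ko replicate 3, with the highest Tyro3 level, had 10.2 nRPKM of neuronal and 33.5 of oligodendrocyte markers. PS2APP;Trem2wt replicate 1, with the next Tyro3 level (0.366 nRPKM), had 5.28 and 33.1 nRPKM. The highest neuronal sum, in PS2APP;Trem2ko replicate 6, went with a Tyro3 level of 0.304 nRPKM. The highest oligodendrocyte sum, in PS2APP;Trem2wt replicate 3, went with a Tyro3 level of 0.185 nRPKM. The part of such cells in the Tyro3 counts was not tested.

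Gas6 (ENSMUSG00000031451), the ligand that all TAM receptors share, was at 88.6 to 117.8 nRPKM (median 96.3) in PS2APP;Trem2wt and at 74.5 to 114.0 nRPKM (median 103.5) in PS2APP;Trem2ko mice. The ranges overlapped over most of their length. Means were 98.1 ± 10.1 (SD, n = 7) and 99.3 ± 15.7 nRPKM (SD, n = 6), with a log2 fold change of 0.01 (standard error 0.10, edgeR adjusted p = 0.965) and a 95% interval from -0.20 to 0.23.

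Pros1 (ENSMUSG00000022912), which encodes the anticoagulant protein S, had the highest level per length of the 5 genes in all 13 mice. It was at 177.9 to 259.0 nRPKM (median 244.7) in PS2APP;Trem2wt and 179.6 to 223.0 nRPKM (median 205.9) in PS2APP;Trem2ko mice. Of the 7 PS2APP;Trem2wt mice, 4 were above every PS2APP;Trem2ko mouse, while the lowest level of all was that of a PS2APP;Trem2wt mouse. Means were 229 ± 30 (SD, n = 7) and 205 ± 17 nRPKM (SD, n = 6). The log2 fold change of -0.16 (standard error 0.09, edgeR adjusted p = 0.449) did not pass the test, and its 95% interval from -0.35 to 0.04 included 0.

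**Figure D3:**
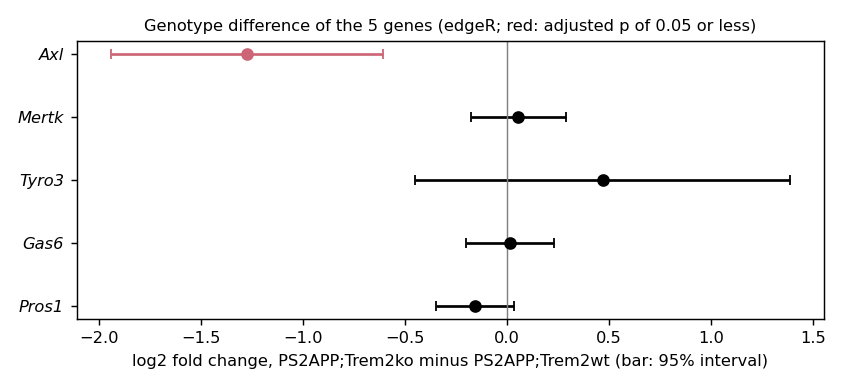
Log2 fold change (PS2APP;Trem2ko minus PS2APP;Trem2wt, horizontal axis) of the 5 genes from edgeR with 95% intervals, in red where the gene was called. The interval of Axl lies between -1.94 and -0.61, and the intervals of Mertk, Tyro3, Gas6 and Pros1 all contain 0.

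Ordered by level per length, the genes stood as Pros1, Mertk, Gas6, Axl and Tyro3 in all 6 PS2APP;Trem2ko mice and in 6 of 7 PS2APP;Trem2wt mice. The exception was PS2APP;Trem2wt replicate 3, in which Axl was second. Neighbors in this order were separated by their group ranges in PS2APP;Trem2ko cells except Pros1 and Mertk, whose ranges met between 179.6 and 182.8 nRPKM. In PS2APP;Trem2wt cells the ranges of Pros1 and Mertk also met, and that of Axl reached above all of Gas6 and Mertk through replicate 3 alone. The mouse-to-mouse variation of Axl was large, with a coefficient of variation of 56.9% in PS2APP;Trem2wt (18.5% without replicate 3) and 40.8% in PS2APP;Trem2ko mice. That of Mertk was 16.2% and 10.4%, that of Gas6 10.3% and 15.8%, and that of Pros1 13% and 8.41%.

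The balance between the receptors was described as the share of each in their summed nRPKM, which does not depend on scaling between libraries. The share of Axl among receptor transcripts was 33.2% ± 10.7 (SD, n = 7) with Trem2 and 17.3% ± 7.0 (SD, n = 6) without it. Single mice ranged from 22.9% to 53.6% and from 10.1% to 27.4%, so that the groups overlapped. The ratio of Mertk to Axl was 0.864 to 3.36 (median 2.33) in PS2APP;Trem2wt and 2.64 to 8.90 (median 5.40) in PS2APP;Trem2ko mice. Tyro3 made up at most 0.289% in any mouse. Between the ligands, Gas6 made up 30.1% ± 2.7 (SD, n = 7) and 32.5% ± 2.8 (SD, n = 6), and Pros1 exceeded Gas6 by 1.84 to 2.74 times over all mice. These shares were not tested.

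**Figure D4:**
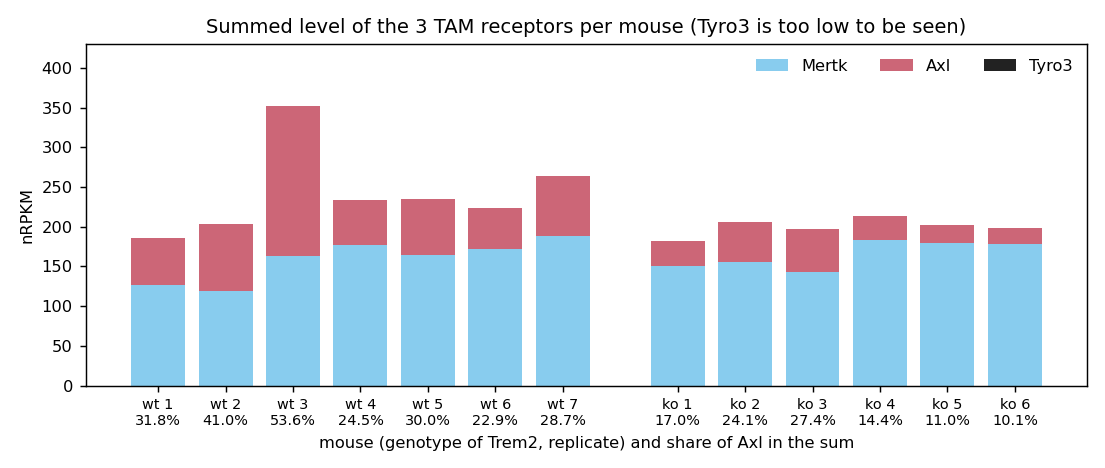
Summed nRPKM of Mertk (blue), Axl (red) and Tyro3 (black, too low to be seen) in each of the 7 PS2APP;Trem2wt (wt) and 6 PS2APP;Trem2ko (ko) mice, with the share of Axl under each bar. The share of Axl is 22.9% to 53.6% in PS2APP;Trem2wt and 10.1% to 27.4% in PS2APP;Trem2ko mice, while the Mertk part of the bars has a similar height in both groups.

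Levels of the 5 genes were also set beside the sex of the mice, with genotype in the fit. No gene of the 5 was called between the 10 females and 3 males by edgeR, voom+limma or DESeq2, none had an unadjusted p of 0.05 or less in edgeR, and 0.0234% of all genes tested were called. Female minus male, the log2 fold change of Axl was 0.32 (standard error 0.38, edgeR adjusted p = 0.883), with a 95% interval from -0.50 to 1.13. It was -0.03 without PS2APP;Trem2wt replicate 3, a female. The 2 PS2APP;Trem2wt males had Axl levels of 75.6 and 83.2 nRPKM, and the PS2APP;Trem2ko male had 22.1 nRPKM. For Mertk, Tyro3, Gas6 and Pros1 the log2 fold changes were -0.03, 0.36, -0.12 and 0.04.

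Variation among mice of the same genotype was compared between the 5 genes, with the genotype mean removed from log2 CPM, over 13 mice and 10 pairs of genes. No pair passed after adjustment. The pair with the largest correlation was Mertk and Pros1, with Pearson's r = 0.62 (permutation test, p = 0.0432, adjusted p = 0.313) and Spearman's rho = 0.54 (permutation p = 0.0863, adjusted p = 0.343). Pearson's r was 0.33 without the 2 mice farthest from the median of Mertk, an omission that also narrows the range of Mertk. In females only it was 0.77 (permutation test, p = 0.0489, adjusted p = 0.414). For the receptor Axl and its ligand Gas6, Pearson's r was 0.29 (permutation test, p = 0.341, adjusted p = 0.576) and Spearman's rho 0.42 (permutation p = 0.181, adjusted p = 0.415), and without the 2 mice farthest from the median of Axl r was -0.30. Adjusted p-values of Pearson's r in the other pairs were between 0.313 and 0.836.

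The genes most like each of the 5 were found by the same within-genotype correlation of log2 CPM over 13 mice, among genes with a mean log2 CPM of at least 3. These correlations are a description. The mice share library and depth differences, and the genes were picked for their high values. For Axl they included Mamdc2 (r = 0.92) and Tap1 (r = 0.91), a peptide transporter of antigen presentation. In both of these genes PS2APP;Trem2wt replicate 3 had the highest level among the PS2APP;Trem2wt mice, as in Axl. Without that mouse they were Mamdc2 (r = 0.92), Bhlhe40 (r = 0.91) and Hpse (r = 0.89). Between genotypes Mamdc2 had a log2 fold change of -4.77 (edgeR adjusted p = 3.34e-06) and Bhlhe40 one of -2.58 (edgeR adjusted p = 0.00014). Hpse and Tap1 had log2 fold changes of -0.30 and 0.20 (edgeR adjusted p = 0.816 and 0.765). The genes most like Mertk were Ap1b1, Fbh1 and Letmd1 (r between 0.94 and 0.95), and those most like Pros1 were Lnpk, Ppp4r3a and Pde3b (r between 0.94 and 0.95). Those most like Gas6 were Slc36a4, Pcnx4 and Tln2 (r between 0.89 and 0.91), and those most like Tyro3 were Hrh2, Olfm1 and D16Ertd472e (r between 0.78 and 0.82).

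The neighborhood of the TAM system was described with 6 lists that hold 88 genes, of which 83 could be tested. Of these, 4 were called lower in PS2APP;Trem2ko cells and none higher, with edgeR, beside 1.53% and 0.503% of all genes tested. At an unadjusted p of 0.05 or less 15 were lower and 2 higher, where 14.8% of all genes tested passed in either direction, a share that also stands behind the unadjusted counts of the single lists. Neither voom+limma nor DESeq2 called a gene of the lists higher, where they called 111 and 325 of all 17086 genes higher. The median log2 fold change over the 83 genes was -0.05, and that of all genes tested was 0.00.

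**Figure D5:**
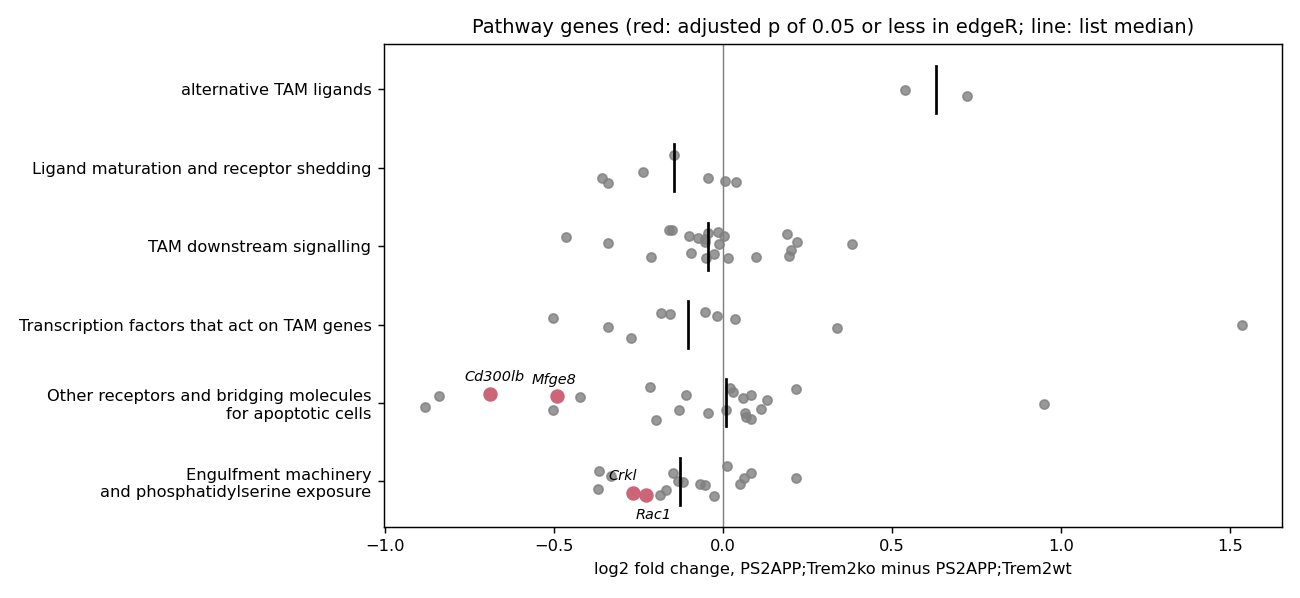
Log2 fold change (PS2APP;Trem2ko minus PS2APP;Trem2wt, horizontal axis) of each tested gene in 6 lists around the TAM system (vertical axis, points spread within a list), with the list median as a line and called genes in red. The 4 red genes, Mfge8, Cd300lb, Crkl and Rac1, have log2 fold changes between -0.69 and -0.23.

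Both genes called among 23 tested receptors and bridging molecules for apoptotic cells act on phosphatidylserine by another route. Of all genes tested, 1.53% were called lower, and in 1.62% the levels of the genotypes did not overlap. Mfge8, a secreted bridge from phosphatidylserine to integrins, was at 20.8 to 29.7 nRPKM in PS2APP;Trem2wt and at 15.3 to 20.6 nRPKM in PS2APP;Trem2ko mice, without overlap. Its log2 fold change was -0.49 (standard error 0.10, edgeR adjusted p = 0.0153), and the adjusted p stayed at 0.05 or less with each mouse left out and was 0.0921 in females only. Cd300lb, an activating receptor of the CD300 family, was at 2.83 to 4.86 nRPKM in PS2APP;Trem2wt and at 1.48 to 2.70 nRPKM in PS2APP;Trem2ko mice, also without overlap. Its log2 fold change was -0.69 (standard error 0.16, edgeR adjusted p = 0.0316). The call was lost without PS2APP;Trem2wt replicates 3 and 5 (edgeR adjusted p = 0.0532 and 0.0646) and without PS2APP;Trem2ko replicates 2, 4, 5 and 6 (edgeR adjusted p = 0.0716, 0.0696, 0.0589 and 0.0621), and in females only (edgeR adjusted p = 0.0697). The median log2 fold change of the list was 0.01, with 11 genes negative and 12 positive. The integrin subunits that receive Mfge8 on the phagocyte, and Cd300lf of the CD300 family, were picked with their values known. Itgav, Itgb3 and Itgb5 had log2 fold changes of -0.50, -0.20 and -0.22 (edgeR adjusted p = 0.104, 0.373 and 0.236). Cd300lf had a positive one, 0.95 (edgeR adjusted p = 0.179), at 4.81 ± 2.03 (SD, n = 7) and 9.35 ± 6.06 nRPKM (SD, n = 6).

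In the engulfment machinery, 2 of 18 tested genes were called lower and none higher, beside 1.53% and 0.503% of all genes tested. Rac1, the small GTPase that drives the phagocytic cup, was at 41.4 to 50.6 nRPKM in PS2APP;Trem2wt and at 36.8 to 39.3 nRPKM in PS2APP;Trem2ko mice. These levels were without overlap, as in 1.62% of all genes tested. The log2 fold change of Rac1 was -0.23 (standard error 0.06, edgeR adjusted p = 0.0483). With any single mouse left out the adjusted p was between 0.0536 and 0.0984. It was 0.105 in females only, and Rac1 was called in 4 of the 9 other alternatives. Crkl, an adaptor that couples tyrosine kinases to Rac activation, was at 15.7 to 18.1 and 12.7 to 15.9 nRPKM. Its log2 fold change was -0.27 (standard error 0.06, edgeR adjusted p = 0.0435), and the adjusted p was 0.05 or less only without PS2APP;Trem2wt replicate 7 or PS2APP;Trem2ko replicate 5, and up to 0.103 without another mouse. Crkl was called in 6 of the 9 other alternatives. The list's median log2 fold change was -0.13.

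No gene was called by edgeR in the other lists. Over all 17086 genes, voom+limma called 325 lower and DESeq2 526, the background for their counts in these lists. For 2 tested alternative ligands the median log2 fold change was 0.63, with 1 gene at an unadjusted p of 0.05 or less and none called by voom+limma or DESeq2. That gene, Lgals3, which encodes galectin-3, a ligand of Mertk, had 16.9 ± 4.6 (SD, n = 7) and 24.6 ± 8.2 nRPKM (SD, n = 6) and an adjusted p of 0.238 from edgeR. The other gene, Tub, was at only 0.066 ± 0.060 (SD, n = 7) and 0.109 ± 0.065 nRPKM (SD, n = 6). Its log2 fold change was 0.72 (standard error 0.72, edgeR adjusted p = 0.699), so the median rests in part on a gene at a low level. For 7 genes of ligand maturation and receptor shedding the median was -0.14, 2 had an unadjusted p of 0.05 or less, and voom+limma called none and DESeq2 1 lower. Among them Ggcx, the carboxylase that activates Gas6 and protein S, had a log2 fold change of -0.34 (edgeR adjusted p = 0.10). The sheddases Adam10 and Adam17, which release the ectodomains of Mertk and Axl, had log2 fold changes of -0.04 and -0.14. Of 23 tested genes of TAM downstream signaling, 3 had an unadjusted p of 0.05 or less, voom+limma called 1 lower and DESeq2 2 lower, and the median log2 fold change was -0.04. Of 10 transcription factors that act on TAM genes, 1 had an unadjusted p of 0.05 or less, voom+limma called none and DESeq2 1 lower, and the median was -0.11. Among them the LXR genes Nr1h2 and Nr1h3, whose products activate Mertk transcription, had log2 fold changes of 0.03 and -0.51 (edgeR adjusted p = 0.849 and 0.505). Nr1h3 was at 0.563 ± 0.153 (SD, n = 7) and 0.400 ± 0.176 nRPKM (SD, n = 6), a low level. Lgals3, Tub, Ggcx, Adam10, Adam17, Nr1h2 and Nr1h3 were picked with their values known.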

How the data were processed

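RNA-Seq data were available for 7 PS2APP;Trem2wt and 6 PS2APP;Trem2ko mice, with genotype and sex taken from the sample labels. Replicate numbers follow accession order and only name the mice. Per the file headers, the authors deposited for each gene a count of its uniquely aligned reads and an nRPKM, which is RPKM scaled by a size factor. According to the paper's methods, single-end reads were cleaned of adapter, poor-quality and ribosomal sequence and aligned to GRCm38 with GSNAP. Strand use and annotation release are not given in the sources used here. Gene symbols and coordinates are from GENCODE M21, and 52403 of 52636 identifiers had a symbol.

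Counts were filtered with filterByExpr, scaled by TMM and tested with glmQLFit and glmQLFTest of edgeR 4.0.16 in R 4.3.3, without a covariate. The SE is the size of the log2 fold change over the square root of F. The paper's voom+limma (limma 3.58.1), DESeq2 1.42.0, other scaling, filters, sex, females only, log2(nRPKM + 0.1), log2(nRPKM + 1) and leaving out each mouse were alternatives, and the scripts were checked on simulated data. Correlations used 100000 permutations within genotype in Python 3.11.15. Among 36 pairs of mice of the same genotype, chi-square per degree of freedom of the counts was at least 18.1, so no pair differed by sampling noise only.

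The members and lists were chosen with earlier results of these data known. Genes named are the 5 members, Trem2, list genes with an adjusted p of 0.05 or less, and the 3 genes most like each member, of which 1 is not reported here. Other genes are marked as named after their values were seen. The limit of 3 counts covers counting error only.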

Additional observations from a re-analysis of the deposited data

Results flagged for a closer look

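In 20 groups of values examined for a single mouse that stands apart by Dixon's criterion, 2 did, where chance gives about 1 in 20. The Axl level of PS2APP;Trem2wt replicate 3 was 188.6 nRPKM against 83.2 in the next mouse of the group, with a gap of 0.767 of the group's range. This mouse also had the highest summed astrocyte (23.4 nRPKM) and oligodendrocyte (38.7 nRPKM) markers of all mice. Its summed microglial markers (17027 nRPKM) were the highest too, but close to the 17019 nRPKM of PS2APP;Trem2wt replicate 4. Its perivascular macrophage markers summed to 30.4 nRPKM, the median of its group. The part of these cells in its Axl level was not tested. The Trem2 level of PS2APP;Trem2ko replicate 4 was 2.29 nRPKM against 0.979 in the next mouse of that group, with a gap of 0.691 of the range.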

How the results depend on the processing

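Axl kept its direction in all 22 alternatives, and its adjusted p was 0.05 or less in 11 of them. Axl was -1.20 on the log2 scale in females only and -1.23 on log2(nRPKM + 0.1), where it missed the threshold and 0 of the 5 genes were called. Leaving out 1 mouse gave -1.44 to -0.94 for Axl and 0 to 1 genes called. Tyro3 ranged from 0.042 to 0.74, Mertk from -0.0044 to 0.098 and Gas6 from -0.026 to 0.087 over those fits, and Gas6 was -0.018 in females only. Genes called lower over all genes numbered 526 with DESeq2 and 173 in females only. Those called higher numbered 325 with DESeq2, 53 with no filter and 42 to 107 with 1 mouse left out. List genes called lower numbered 10 with DESeq2, 2 with no filter, 1 in females only, 2 on log2(nRPKM + 0.1) and 1 to 4 with 1 mouse left out. Female minus male, leaving out 1 mouse gave -0.034 to 0.43 for Axl, -0.20 to 0.12 for Mertk, -0.010 to 0.16 for Pros1 and -0.052 to 0.65 for Tyro3. From CPM, which is not per length, the share of Gas6 was 25.0% in PS2APP;Trem2wt and 27.1% in PS2APP;Trem2ko cells. The correlation of Tyro3 and Gas6 was 0.071 in females only and -0.068 in all mice, with no call in either. Females only and single mice left out use fewer samples, and for the other alternatives the cause was not tested. The genes most like Axl without PS2APP;Trem2wt replicate 3 were chosen after seeing the data. No paired analysis was possible because the labels do not say which mice were handled together. The paper's methods describe animals of both genotypes usually being taken through dissociation and sorting as pairs, and every fit here ignored that pairing. Depth limits Tyro3, with as few as 14 counts.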
